A study of Mus musculus with 8 samples.

Results

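The genes described here encode RNA polymerase II, the general transcription factors, the TAF proteins and Mediator in mouse leukaemia cells after deletion of Cdc73. They were the rows of the deposited expression table whose symbol begins with Polr2, with Gtf2, with Taf and a digit, or with Med and a digit, which gave 82 of 23361 rows. Of the 82 members, 79 reached 1 FPKM (fragments scaled to transcript length and to all mapped fragments) in at least 1 group and had a q-value at both times. The 3 others were Gtf2a1l, Taf7l and Med12l. Gtf2a1l was listed at 0 in all 4 groups, Taf7l at 0.0138 FPKM in floxed cells at 24 h and at 0 in the other groups, and Med12l at 0.0399 FPKM in floxed and 0.120 FPKM in wild type cells at 24 h and at 0.0358 FPKM in floxed and 0.0713 FPKM in wild type cells at 48 h. The name pattern also takes in genes of other complexes, so members were placed in 18 complexes, modules or families and are described in that order.

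Poly(A) RNA came from established acute myeloid leukaemia lines of strain 129S6, derived from bone marrow and carrying the fusion oncogene MLL-AF9. The floxed line had the genotype Cdc73fl/fl CreERT2. The wild type line was Cdc73 +/+ CreERT2. Both lines therefore carried the CreER recombinase, which 4-hydroxytamoxifen (4OHT) activates, and both received 7.5 nM 4OHT for 24 or 48 h in medium with interleukin 3. The 8 libraries formed 4 groups of 2 duplicates. Cdc73 belongs to the PAF1 complex, which accompanies RNA polymerase II during elongation, so the comparison of genotypes addresses what follows when that complex loses a subunit. No untreated library was analysed here, the labels do not give the number of clones, and any standing difference between the 2 lines is part of every comparison below.

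RNA polymerase II is the enzyme that makes messenger RNA. General factors place it at the start of a gene: TFIID, built of the TATA-binding protein and the TAFs, binds the promoter, TFIIA and TFIIB join it, TFIIF arrives with the polymerase, and TFIIE and TFIIH open the DNA. Mediator links these factors to activators bound elsewhere, through a head and a middle module that touch the polymerase, a tail that meets activators, the scaffold Med14, and a kinase module that can detach.

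The table holds 1 FPKM value per gene and group, made by the authors from both duplicates, so no spread between libraries can be given and depth per library is not given. A gene is called changed where the q-value in the authors' deposited table was under 0.05, with the direction taken from the FPKM values. Cdc73 itself stood at 5.96 FPKM in floxed and 26.2 FPKM in wild type cells at 24 h, and at 5.45 FPKM in floxed and 26.9 FPKM in wild type cells at 48 h. Its locus entry in the table is shared with another gene. Of 9 markers of the myeloid leukaemia line, 8 were found and all 8 reached 1 FPKM, whereas T cell, B cell, erythroid and fibroblast markers stayed at 0.555 FPKM or lower. Cd3e, Hbb-b1 and Dcn were at 0. Summed marker levels differed between genotypes at 48 h for 3 lists. The 8 leukaemia line markers summed to 5246 FPKM in floxed and 4745 FPKM in wild type cells at 24 h and to 3060 FPKM in floxed and 5185 FPKM in wild type cells at 48 h. Elane and Mpo made up most of each sum, and Elane sits in a locus entry of 46 genes. Single markers were called in both directions at 48 h: Elane, Mpo, Kit and Meis1 lower in floxed cells, and Itgam, Ptprc and Hoxa9 higher. All 6 mature myeloid markers were found, and they summed to 7878 FPKM in floxed and 9061 FPKM in wild type cells at 24 h and to 26792 FPKM in floxed and 6743 FPKM in wild type cells at 48 h. The 3 megakaryocyte markers, 2 of which reached 1 FPKM, summed to 12.1 FPKM in floxed and 1.74 FPKM in wild type cells at 48 h. Pf4 alone had 10.8 FPKM in floxed cells, and Gp9 was the lower in them, at 0.235 FPKM beside 0.744 FPKM in wild type cells. The part of these shifts in the results below was not tested. In such bulk samples, fewer cells of a type and less RNA per cell cannot be told apart.

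The machinery as a whole did not move in 1 direction. At 24 h, 17 of the 79 expressed members were called, 13 higher and 4 lower in floxed cells, which is 21.5% of them, and 27.6% of all tested genes were called. By direction, 16.5% of the members and 13.4% of all genes were higher, and 5.06% of the members and 14.2% of all genes were lower. At 48 h, 29 members were called, 16 higher and 13 lower, or 36.7% of the members, beside 56.8% of all tested genes. The share called higher was 20.3% among the members and 25.7% among all genes, and the share called lower was 16.5% among the members and 31.0% among all genes. At least 5 FPKM in a group made little difference to this background, with 25.6% of such genes called at 24 h and 56.7% at 48 h.

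The sizes were modest. The median log2 difference of the members on the log2(FPKM + 1) scale was 0.08 at 24 h and 0.02 at 48 h, against -0.01 and -0.06 over all expressed genes. The median size without its sign was 0.17 at 24 h and 0.31 at 48 h for the members, and 0.21 and 0.47 for all expressed genes. Scaling the groups to the same sum of FPKM turned the 48 h median to -0.07, with all expressed genes then at -0.15. At 24 h Taf4a was the 1 called member with a ratio of at least 1.5 and none was 1.5-fold or more lower, beside 7.67% and 7.14% of all tested genes. At 48 h 11 members were called with a ratio of at least 1.5 higher and 11 with 1.5-fold or more lower, or 13.9% each, beside 20.2% and 23.3% of all tested genes. The plot of differences by complex shows called genes in opposite directions within TFIIH, TFIID and both the head and the middle of Mediator at 48 h.

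**Figure D1:**
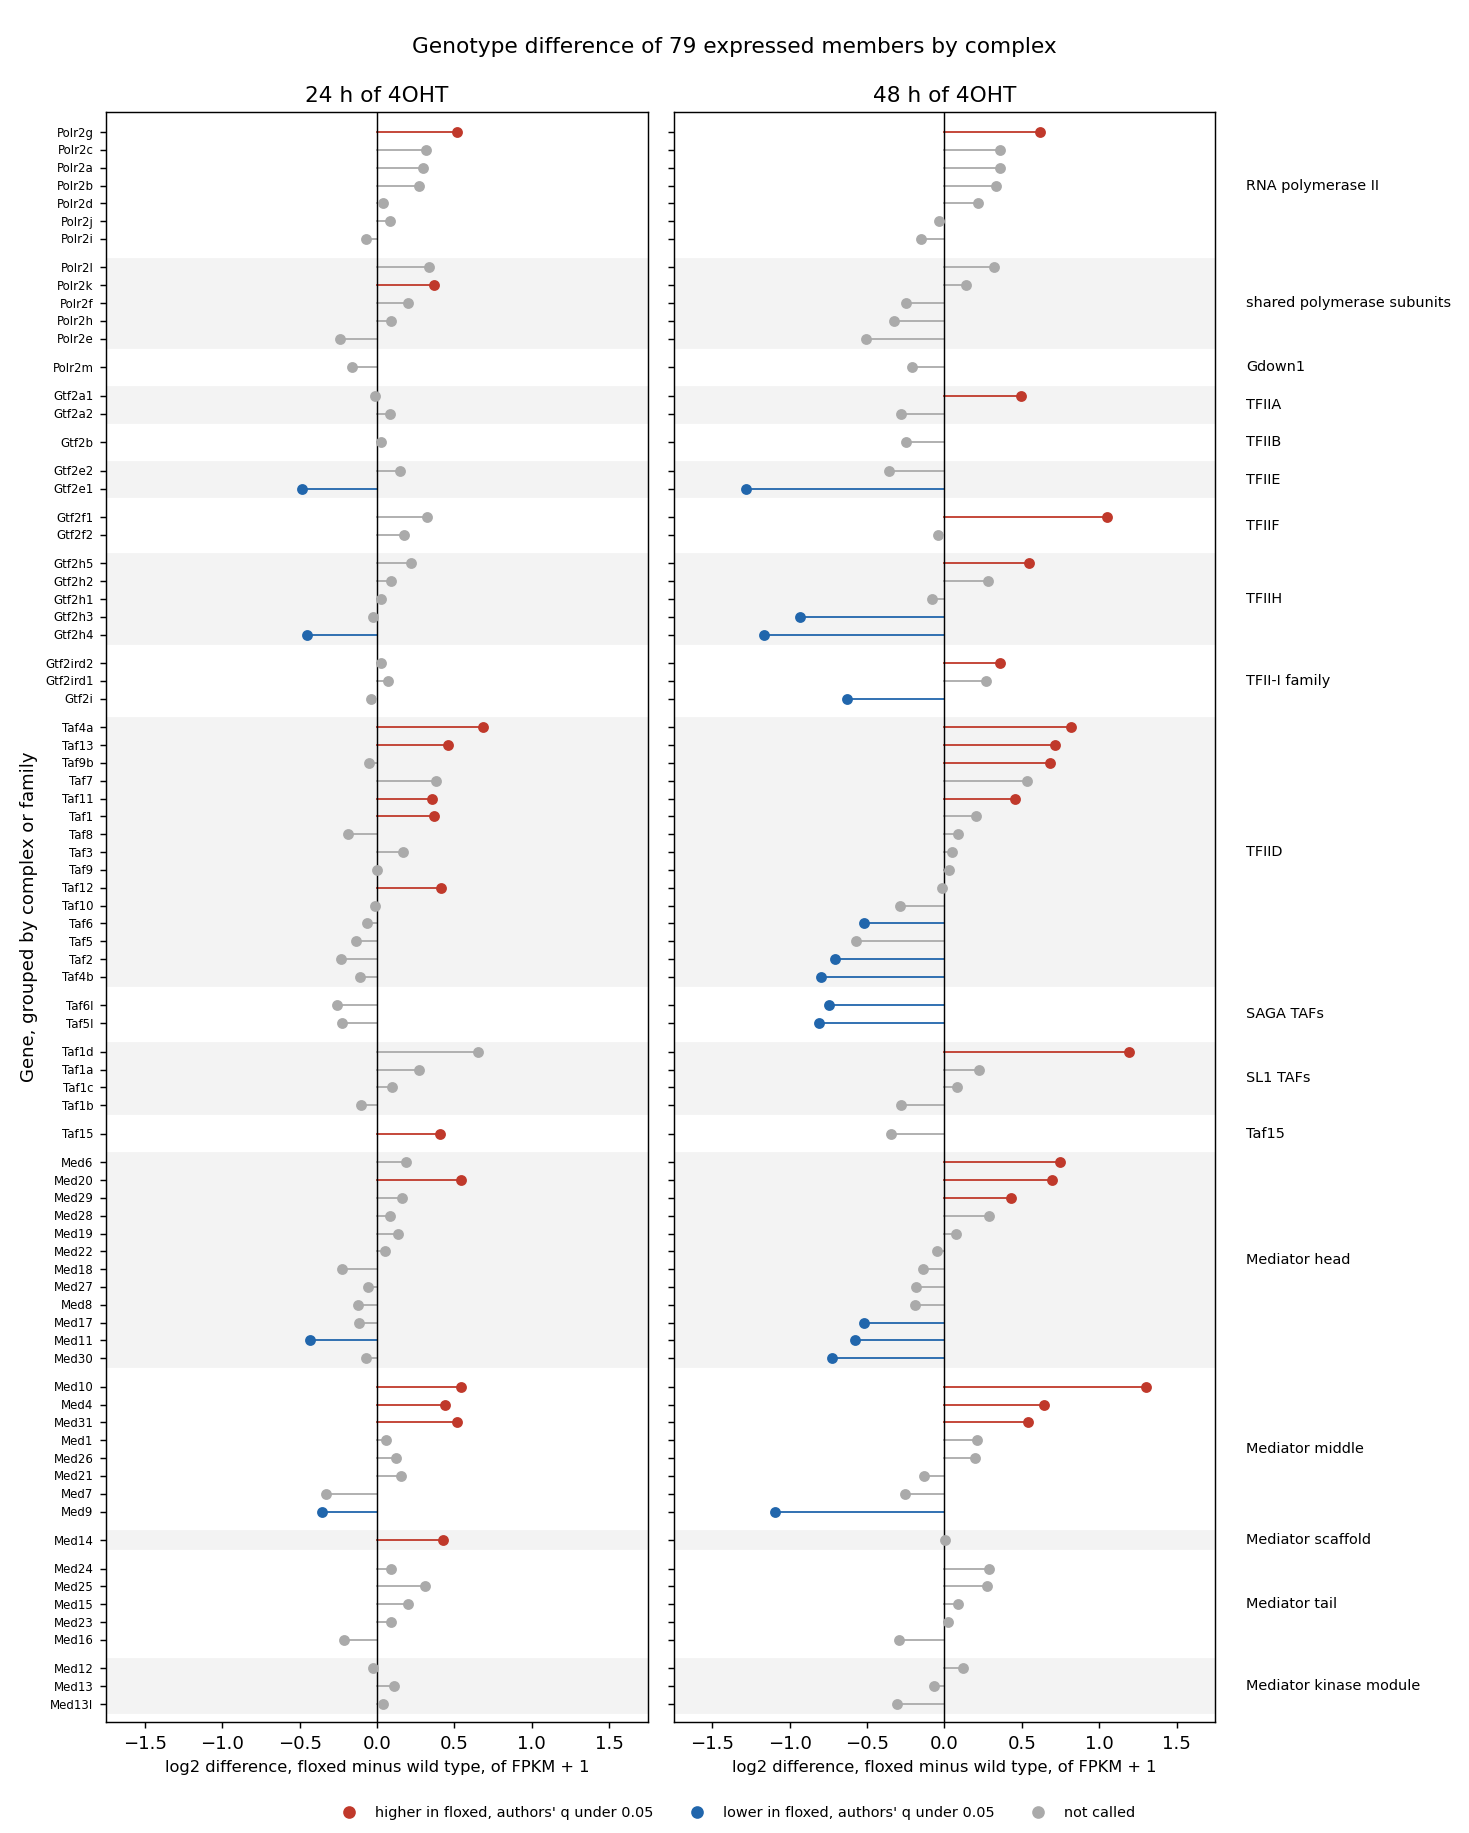
Log2 difference of each expressed member, floxed minus wild type, on the log2(FPKM + 1) scale, at 24 h (left) and 48 h (right). Each point is 1 gene (79 genes), rows are grouped by complex, and colour gives the call by the authors' q under 0.05; 13 genes are called higher and 4 lower at 24 h, and 16 higher and 13 lower at 48 h.

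Upstream sequences are shown for a few of the members that changed most, as the DNA on which this machinery would assemble at its own genes. They are 5 of the members called with at least a 2-fold difference at 48 h, each with a locus entry of its own; Taf4b, which also meets this, is named only. Med10 and Gtf2f1 rose and Gtf2h3, Gtf2h4 and Gtf2e1 fell. The sequences are the 250 bases before the RefSeq start nearest to the deposited locus, in GRCm38.p6 and on the strand of the gene: chr13:69809632-69809881 on the plus strand for Med10, chr17:57011289-57011538 on the minus strand for Gtf2f1, chr5:124578898-124579147 on the plus strand for Gtf2h3, chr17:35673744-35673993 on the minus strand for Gtf2h4 and chr16:37539790-37540039 on the minus strand for Gtf2e1. Capitals mark matches, on either strand, to the letters TATAAA of the TATA box, CCAAT of the CCAAT box, GGGCGG of the GC box, CCGGAAG of the ETS site, CACGTG of the E-box, TGACGTCA of the cyclic AMP response element or AAGATGGC of the YY1 site. Adjoining matches may overlap.
Med10: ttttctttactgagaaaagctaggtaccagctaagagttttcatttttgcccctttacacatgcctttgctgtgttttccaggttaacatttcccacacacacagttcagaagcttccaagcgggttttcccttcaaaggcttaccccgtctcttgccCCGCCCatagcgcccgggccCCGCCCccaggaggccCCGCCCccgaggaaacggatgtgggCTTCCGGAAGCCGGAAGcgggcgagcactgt
Gtf2f1: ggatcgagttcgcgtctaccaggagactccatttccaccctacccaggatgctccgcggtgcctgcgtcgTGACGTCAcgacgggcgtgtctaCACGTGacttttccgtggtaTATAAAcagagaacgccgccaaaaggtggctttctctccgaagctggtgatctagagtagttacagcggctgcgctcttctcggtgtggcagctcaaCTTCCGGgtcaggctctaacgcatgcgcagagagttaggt
Gtf2h3: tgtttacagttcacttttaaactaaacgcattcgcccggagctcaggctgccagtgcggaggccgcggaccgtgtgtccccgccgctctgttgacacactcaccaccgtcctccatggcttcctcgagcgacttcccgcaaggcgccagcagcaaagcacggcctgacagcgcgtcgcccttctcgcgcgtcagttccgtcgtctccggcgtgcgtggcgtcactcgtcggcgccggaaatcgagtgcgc
Gtf2h4: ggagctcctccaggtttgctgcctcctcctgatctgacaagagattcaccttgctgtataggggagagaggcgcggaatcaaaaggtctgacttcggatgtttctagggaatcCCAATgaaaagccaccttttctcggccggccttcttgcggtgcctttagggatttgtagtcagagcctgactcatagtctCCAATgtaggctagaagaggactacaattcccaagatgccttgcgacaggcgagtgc
Gtf2e1: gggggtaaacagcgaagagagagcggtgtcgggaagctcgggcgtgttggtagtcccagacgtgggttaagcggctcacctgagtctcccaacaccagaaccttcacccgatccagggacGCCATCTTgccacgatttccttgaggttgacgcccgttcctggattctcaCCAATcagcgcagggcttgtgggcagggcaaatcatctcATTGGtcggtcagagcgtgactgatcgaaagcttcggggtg
For Med10 RefSeq lists 2 starts, and the one used lies within the gene span given by GENCODE M21, which begins farther upstream. Its sequence held 3 GC boxes and 3 ETS sites, the ETS sites within 1 run of capitals close to the start. Gtf2f1 held 1 TATA box, 1 ETS site, 1 E-box and 1 cyclic AMP response element. Gtf2h4 held 2 CCAAT boxes, Gtf2e1 held 2 CCAAT boxes and 1 YY1 site, and Gtf2h3 matched none of the 7 motifs. A match is a description of the letters and not a bound site.

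RefSeq starts were listed for 71 of the 82 members. The GC box was found before 45 of them, or 63.4%, beside 33.2% of all 27025 promoters and 60.7% of the promoters of expressed genes. The ETS site was found before 17 members (23.9%), beside 7.16% of all promoters and 15.8% of those of expressed genes. An E-box stood before 11 members (15.5%), beside 6.04% of all promoters and 8.86% of those of expressed genes, and TATAAA likewise stood before 11 members, beside 13% of all promoters and 6.01% of those of expressed genes. The CCAAT box was found before 25 members (35.2%), beside 34.4% of all promoters and 37.4% of those of expressed genes. The cyclic AMP response element was found before 3 members (4.23%), beside 1.62% of all promoters and 2.90% of those of expressed genes, and the YY1 site before 2 members (2.82%), beside 1.59% and 2.26%.

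The 12 subunits of the polymerase were abundant transcripts. Of them 16.7% were called at 24 h and 8.33% at 48 h, beside 27.6% and 56.8% of all tested genes. None was called lower in floxed cells, beside 14.2% of all tested genes at 24 h and 31.0% at 48 h. The catalytic subunits did not pass the test. Polr2a, the largest subunit, whose tail of repeats is phosphorylated during transcription, stood at 60.2 FPKM in floxed and 48.7 FPKM in wild type cells at 24 h and at 60.6 FPKM in floxed and 47.1 FPKM in wild type cells at 48 h. The authors' deposited table gave it q = 0.0902 and q = 0.0561 at the 2 times. Polr2b, which forms the other side of the active site, had 71.9 FPKM in floxed and 59.4 FPKM in wild type cells at 24 h and 73.5 FPKM in floxed and 58.1 FPKM in wild type cells at 48 h, with q = 0.131 and q = 0.0737 in the authors' deposited table. Floxed cells were the higher group in all 4 of these pairs, by ratios between 1.21 and 1.29. Polr2c, part of the assembly platform, had ratios of 1.25 at 24 h and 1.29 at 48 h and was not called.

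Polr2g, which with Polr2d forms the stalk of the polymerase, rose at both times. It had 161 FPKM in floxed and 112 FPKM in wild type cells at 24 h, a ratio of 1.44, and 176 FPKM in floxed and 114 FPKM in wild type cells at 48 h, a ratio of 1.54. Its q in the authors' deposited table was 0.000831 at 24 h and 0.000731 at 48 h. Its stalk partner Polr2d was not called and had ratios of 1.03 and 1.17. Polr2i and Polr2j were not called at either time and had ratios between 0.896 and 1.06.

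Polymerases I, II and III share 5 subunits. Polr2k, the smallest of them, rose at 24 h, with 99.4 FPKM in floxed and 76.9 FPKM in wild type cells, a ratio of 1.29 and q = 0.0462 in the authors' deposited table. At 48 h it stood at 93.3 FPKM in floxed and 84.8 FPKM in wild type cells and was not called. Polr2e, Polr2f and Polr2h were not called and at 48 h had ratios of 0.701, 0.842 and 0.793, while Polr2l had 1.25. Polr2e sits in a locus entry of 46 genes, and the authors' deposited table gives it q = 0.826 at 48 h in spite of 65.0 FPKM in floxed and 92.7 FPKM in wild type cells. Polr2m (Gdown1), which binds the polymerase and competes with TFIIF, was not called, with 99.3 FPKM in floxed and 115 FPKM in wild type cells at 48 h. The median log2 difference of the 12 subunits was 0.24 at 24 h and 0.18 at 48 h, beside -0.01 and -0.06 for all expressed genes. For the 7 subunits of polymerase II alone it was 0.27 and 0.33, and for the 5 shared subunits 0.20 and -0.25.

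Within the general factors TFIIA, TFIIB, TFIIE, TFIIF and TFIIH, 2 of 12 expressed members fell and none rose at 24 h, and 3 rose and 3 fell at 48 h. That is 16.7% and 50.0% called, beside 27.6% and 56.8% of all tested genes. Within 4 of these 5 factors, partner subunits of the same complex were called differently at 48 h. The difference between partners was not tested. In TFIIE both subunits were below wild type at 48 h, with ratios of 0.378 and 0.776. In TFIIA and TFIIF the partners lay on opposite sides of wild type. TFIIE gave the largest fall. Gtf2e1, its large subunit, at chromosome 16, 37509790 to 37539789, had 12.3 FPKM in floxed and 17.7 FPKM in wild type cells at 24 h and 6.65 FPKM in floxed and 17.6 FPKM in wild type cells at 48 h. The fall was 1.43-fold at 24 h and 2.64-fold at 48 h, with q = 0.00305 and q = 0.000165 in the authors' deposited table. Gtf2e2, the small subunit, was not called, with 43.2 FPKM in floxed and 55.7 FPKM in wild type cells at 48 h and q = 0.0565 in the authors' deposited table. Over all genes the smallest q in the authors' deposited table is 0.000165 at 48 h and 0.000449 at 24 h, and Cdc73 has it at both times. Among the members, 13 share it at 48 h and Taf4a alone has it at 24 h, so it does not rank them.

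TFIIF, the polymerase's escort, went the other way. Gtf2f1, its large subunit, at chromosome 17, 57003405 to 57011288, had 68.7 FPKM in floxed and 54.7 FPKM in wild type cells at 24 h and 113 FPKM in floxed and 53.9 FPKM in wild type cells at 48 h. The 48 h ratio was 2.09, with q = 0.000165 in the authors' deposited table, and at 24 h the ratio of 1.26 was not called. Gtf2f2, the small subunit, was level between genotypes at 48 h, at 46.2 FPKM in floxed and 47.7 FPKM in wild type cells, and was not called.

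TFIIH, which holds the helicases and the kinase that act at promoter opening, had subunits of its core called in both directions. Gtf2h4, the p52 subunit that stimulates the helicase Ercc3, had 15.5 FPKM in floxed and 21.6 FPKM in wild type cells at 24 h and 9.19 FPKM in floxed and 21.9 FPKM in wild type cells at 48 h. It fell at both times, 1.39-fold and 2.38-fold, with q = 0.00826 and q = 0.000165 in the authors' deposited table. Gtf2h3, the p34 subunit that pairs with p44, had 11.7 FPKM in floxed and 11.9 FPKM in wild type cells at 24 h and 6.97 FPKM in floxed and 14.2 FPKM in wild type cells at 48 h, and was 2.04-fold lower at 48 h (q = 0.000165, the authors' deposited table). Its wild type level was itself 1.20 times as high at 48 h as at 24 h, the highest such ratio of any expressed member. Gtf2h5, the small p8 subunit needed for DNA repair by TFIIH, rose at 48 h with 92.8 FPKM in floxed and 63.4 FPKM in wild type cells, a ratio of 1.46 and q = 0.00360 in the authors' deposited table. Gtf2h1 and Gtf2h2 were not called at either time.

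In TFIIA, Gtf2a1, the precursor of the alpha and beta chains, rose at 48 h, with 14.5 FPKM in floxed and 10.0 FPKM in wild type cells, and was level at 24 h, with 10.2 FPKM in floxed and 10.3 FPKM in wild type cells. The 48 h q was 0.00448 in the authors' deposited table. Gtf2a2, the gamma chain, and Gtf2b, the single chain of TFIIB that helps set the start site, were not called. Gtf2b had 55.8 FPKM in floxed and 54.7 FPKM in wild type cells at 24 h and 48.0 FPKM in floxed and 57.1 FPKM in wild type cells at 48 h.

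The TFII-I family shares the Gtf2 name but consists of sequence-specific regulators. Gtf2i fell at 48 h, with 33.1 FPKM in floxed and 51.7 FPKM in wild type cells, 1.56-fold lower and with q = 0.000165 in the authors' deposited table, after 47.8 FPKM in floxed and 49.0 FPKM in wild type cells at 24 h. Gtf2ird2 rose at 48 h at a low level, with 3.30 FPKM in floxed and 2.35 FPKM in wild type cells and q = 0.0264 in the authors' deposited table. Exons of Gtf2ird2 overlap those of Ncf1, so its value is uncertain. Gtf2ird1 was not called at either time.

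Of the 15 expressed TFIID subunits, 5 rose and none fell at 24 h, and 4 rose and 3 fell at 48 h. Of all tested genes 13.4% were higher and 14.2% lower at 24 h, and 25.7% higher and 31.0% lower at 48 h. Taf4a, a histone-fold subunit that contacts activators, at chromosome 2, 179912152 to 179976646, was the most changed member at 24 h. It had 10.3 FPKM in floxed and 6.0 FPKM in wild type cells at 24 h and 11.5 FPKM in floxed and 6.11 FPKM in wild type cells at 48 h. The ratios were 1.71 and 1.89, with q = 0.000449 and q = 0.000165 in the authors' deposited table.

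Taf4b, the cell-type-restricted relative of Taf4a best known from the mouse ovary and testis, moved in the opposite direction. It had 3.68 FPKM in floxed and 4.06 FPKM in wild type cells at 24 h and 1.66 FPKM in floxed and 3.63 FPKM in wild type cells at 48 h, a 2.18-fold fall with q = 0.000165 in the authors' deposited table. The FPKM of Taf4a over that of Taf4b was 2.78 in floxed and 1.48 in wild type cells at 24 h and 6.93 in floxed and 1.68 in wild type cells at 48 h. The ratio was thus nearly level between times in wild type cells.

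A similar pair is Taf9 and Taf9b, which can replace each other in TFIID. Taf9b rose at 48 h, with 4.67 FPKM in floxed and 2.54 FPKM in wild type cells, a ratio of 1.84 and q = 0.000165 in the authors' deposited table, after 2.46 FPKM in floxed and 2.60 FPKM in wild type cells at 24 h. Taf9 was not called and remained far more abundant, at 203 FPKM in floxed and 199 FPKM in wild type cells at 48 h, although its exons overlap those of Ak6. The FPKM of Taf9 over that of Taf9b was 86.5 in floxed and 82.1 in wild type cells at 24 h and 43.5 in floxed and 78.4 in wild type cells at 48 h.

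Among the other histone-fold subunits, Taf11 and Taf13 pair with each other, and both rose at both times. Taf13 had 19.7 FPKM in floxed and 14.0 FPKM in wild type cells at 24 h and 25.3 FPKM in floxed and 15.1 FPKM in wild type cells at 48 h, with ratios of 1.40 and 1.68 and q = 0.0124 and q = 0.000457 in the authors' deposited table. Taf11 had ratios of 1.29 and 1.38. Taf12, the histone-fold partner of Taf4a, rose at 24 h, with 42.2 FPKM in floxed and 31.4 FPKM in wild type cells (q = 0.0143 in the authors' deposited table), and was level at 48 h, with 32.8 FPKM in floxed and 33.3 FPKM in wild type cells. Taf1, the largest subunit and the scaffold that binds acetylated histones, had 13.5 FPKM in floxed and 10.3 FPKM in wild type cells at 24 h and 13.8 FPKM in floxed and 11.9 FPKM in wild type cells at 48 h. Taf1 was called higher at 24 h, with q = 0.0222 in the authors' deposited table, and not at 48 h.

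The TFIID subunits that fell at 48 h were Taf2, Taf4b and Taf6. Taf2, which touches the initiator DNA at the start site, had 15.6 FPKM in floxed and 18.5 FPKM in wild type cells at 24 h and 11.2 FPKM in floxed and 19.0 FPKM in wild type cells at 48 h, a 1.69-fold fall with q = 0.000165 in the authors' deposited table. Taf6 had 18.8 FPKM in floxed and 27.3 FPKM in wild type cells at 48 h and was 1.46-fold lower, with q = 0.0212 in the authors' deposited table. Taf5, the repeat protein that with Taf6 and Taf9 forms the core of TFIID, had 5.35 FPKM in floxed and 8.45 FPKM in wild type cells at 48 h and was not called (q = 0.0993 in the authors' deposited table). Taf7, which binds Taf1, had 14.2 FPKM in floxed and 9.50 FPKM in wild type cells at 48 h and was not called either, with q = 0.0626 in the authors' deposited table. It shares its locus entry with the protocadherin cluster, 61 genes in all, and Taf5 and Taf6 each share theirs with another gene. Taf3, Taf8, Taf9 and Taf10 were not called at either time.

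Taf5l and Taf6l take the places of Taf5 and Taf6 in the histone acetyltransferase complex SAGA, and both fell at 48 h. Of all tested genes, 31.0% were called lower at that time, and 23.3% were called 1.5-fold or more lower. Taf5l had 28.1 FPKM in floxed and 33.1 FPKM in wild type cells at 24 h and 17.1 FPKM in floxed and 30.7 FPKM in wild type cells at 48 h, 1.80-fold lower with q = 0.000165 in the authors' deposited table. Taf6l had 10.0 FPKM in floxed and 12.2 FPKM in wild type cells at 24 h and 6.98 FPKM in floxed and 12.4 FPKM in wild type cells at 48 h, 1.77-fold lower with q = 0.00393 in the authors' deposited table. Its locus entry holds 3 genes and its exons overlap those of AC025794.2, so its value is uncertain. The FPKM of Taf5 over that of Taf5l was 0.314 in floxed and 0.275 in wild type cells at 48 h, and that of Taf6 over Taf6l was 2.69 in floxed and 2.20 in wild type cells.

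Taf1a, Taf1b, Taf1c and Taf1d belong to SL1, the selectivity factor of RNA polymerase I. Taf1d, at chromosome 9, 15306214 to 15316991, had 46.7 FPKM in floxed and 29.4 FPKM in wild type cells at 24 h and 65.8 FPKM in floxed and 28.2 FPKM in wild type cells at 48 h. The 24 h ratio of 1.59 was the highest among members that were not called (q = 0.0514 in the authors' deposited table), and the 48 h ratio of 2.34 was called, with q = 0.000595. Taf1d hosts small RNAs and shares its locus entry, which holds 4 genes, so its value is uncertain. The other 3 SL1 genes were not called and had 48 h ratios of 0.812 to 1.23. Taf15, an RNA-binding protein, was called higher at 24 h, with 83.8 FPKM in floxed and 62.8 FPKM in wild type cells and q = 0.0158 in the authors' deposited table. At 48 h it was below wild type, with 52.6 FPKM in floxed and 67.1 FPKM in wild type cells, and was not called (q = 0.0622 in the authors' deposited table).

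Of the 29 expressed Mediator subunits, 5 rose and 2 fell at 24 h, and 6 rose and 4 fell at 48 h. That is 24.1% and 34.5% called, beside 27.6% and 56.8% of all tested genes. The calls were in the head, middle and scaffold, which hold 21 of the 29, and the difference between modules was not tested. In the head, 3 of 12 subunits rose and 3 fell at 48 h. Med6, at the joint of head and middle, had 25.4 FPKM in floxed and 22.1 FPKM in wild type cells at 24 h and 34.5 FPKM in floxed and 20.1 FPKM in wild type cells at 48 h, a ratio of 1.71 with q = 0.000165 in the authors' deposited table. Med20, of the movable jaw, rose at both times. It had 25.9 FPKM in floxed and 17.5 FPKM in wild type cells at 24 h and 30.0 FPKM in floxed and 18.2 FPKM in wild type cells at 48 h, with ratios of 1.48 and 1.65. Its jaw partner Med18 was not called and had ratios of 0.834 and 0.893. Med20 exons overlap Gm20517 and Kpna2-ps.

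Med30, Med11 and Med17 were the head subunits that fell at 48 h. Med30, which is found in metazoan Mediator, had 35.6 FPKM in floxed and 37.5 FPKM in wild type cells at 24 h and 21.0 FPKM in floxed and 35.4 FPKM in wild type cells at 48 h, 1.68-fold lower with q = 0.000457 in the authors' deposited table. Med11, which pairs with Med22 in the fixed jaw, had 24.0 FPKM in floxed and 32.7 FPKM in wild type cells at 24 h and 21.5 FPKM in floxed and 32.5 FPKM in wild type cells at 48 h, and was called lower at both times (q = 0.0168 and q = 0.00234 in the authors' deposited table). Its partner Med22 was not called. Med17, the backbone of the head, had 16.2 FPKM in floxed and 23.7 FPKM in wild type cells at 48 h and was 1.46-fold lower. Med29 rose at 48 h with a ratio of 1.38.

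The middle module held the largest rise and the largest fall of any Mediator subunit. Med10, a subunit of the middle module's hook, at chromosome 13, 69802395 to 69816104, had 63.2 FPKM in floxed and 43.0 FPKM in wild type cells at 24 h and 100.4 FPKM in floxed and 40.0 FPKM in wild type cells at 48 h. Its ratios were 1.47 and 2.51, with q = 0.000831 and q = 0.000165 in the authors' deposited table, and the 48 h ratio was the highest of all expressed members. Its exons overlap Gm26819. Med9, which forms a bundle with Med4, had 10.3 FPKM in floxed and 13.5 FPKM in wild type cells at 24 h and 5.71 FPKM in floxed and 13.4 FPKM in wild type cells at 48 h. It fell 1.31-fold at 24 h and 2.34-fold at 48 h, with q = 0.0368 and q = 0.000165 in the authors' deposited table, and shares its locus entry with another gene.

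Med4, the bundle partner of Med9, rose instead. It had 45.8 FPKM in floxed and 33.5 FPKM in wild type cells at 24 h and 52.2 FPKM in floxed and 33.1 FPKM in wild type cells at 48 h, with ratios of 1.37 and 1.58 and q = 0.00895 and q = 0.000731 in the authors' deposited table. Med31, a small conserved subunit, rose at both times with ratios of 1.49 and 1.5, at 12.5 FPKM in floxed and 8.40 FPKM in wild type cells at 24 h and 13.6 FPKM in floxed and 9.01 FPKM in wild type cells at 48 h. Med7, Med21, Med1 and Med26 were not called at either time. Med1, which binds nuclear receptors, had 17.9 FPKM in floxed and 17.1 FPKM in wild type cells at 24 h and 19.9 FPKM in floxed and 17.0 FPKM in wild type cells at 48 h. Med26, which links Mediator to elongation factors, had 7.69 FPKM in floxed and 6.99 FPKM in wild type cells at 24 h and 7.65 FPKM in floxed and 6.53 FPKM in wild type cells at 48 h.

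Med14, the scaffold that joins head, middle and tail, rose at 24 h, with 21.0 FPKM in floxed and 15.3 FPKM in wild type cells, a ratio of 1.37 and q = 0.00730 in the authors' deposited table. At 48 h both genotypes had 16.2 FPKM. The 5 tail subunits Med15, Med16, Med23, Med24 and Med25 and the 3 expressed subunits of the kinase module, Med12, Med13 and Med13l, included no call at either time in the authors' deposited table. Of all tested genes, 27.6% were called at 24 h and 56.8% at 48 h. Med16 sits in a locus entry of 46 genes, with q = 0.981 and q = 0.903 in the authors' deposited table, so its lack of a call says little. With p recovered from the authors' q by its rank, 1 of the 8 tail and kinase subunits was under 0.05 at each time, Med25 at 24 h and Med13l at 48 h. Among all 79 expressed members, 26 were under 0.05 at 24 h and 36 at 48 h. The share of all tested genes under this p is not given, so these counts do not set the modules apart. Tail ratios at 48 h ran from 0.807 to 1.23. Med12, which activates the module's kinase, had 8.88 FPKM in floxed and 9.04 FPKM in wild type cells at 24 h and 10.3 FPKM in floxed and 9.39 FPKM in wild type cells at 48 h. Med13 and Med13l, alternative tethers of the kinase module to the core, had a FPKM ratio to each other of 1.39 in floxed and 1.15 in wild type cells at 48 h.

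**Figure D2:**
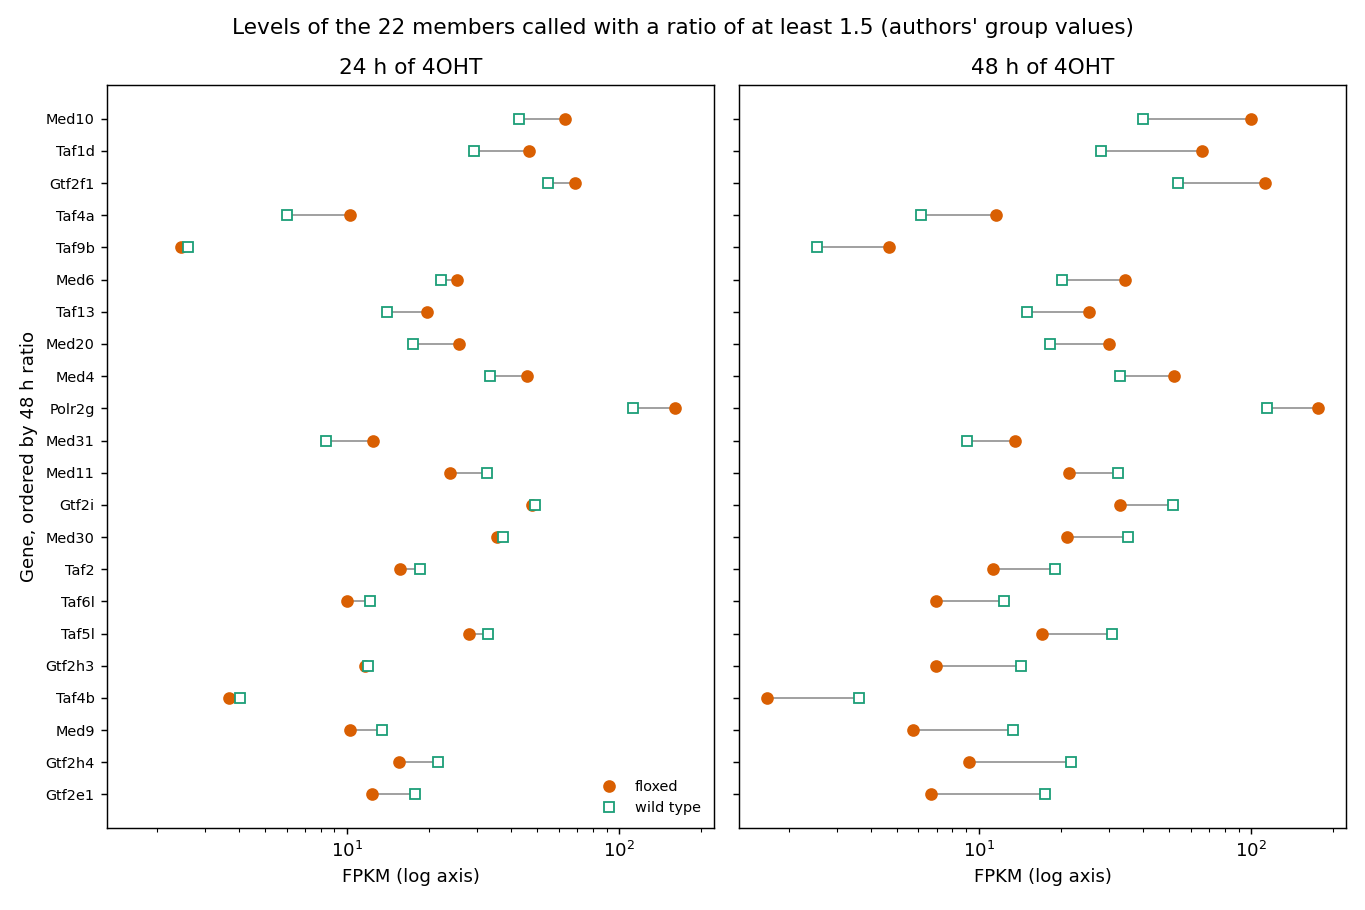
FPKM on a log axis in floxed cells (filled circles) and wild type cells (open squares) for the 22 members called with a ratio of at least 1.5 in either direction, at 24 h (left) and 48 h (right), ordered by the 48 h ratio. Each symbol is the authors' single value for a group, from Med10 (100.4 FPKM in floxed, 40.0 FPKM in wild type at 48 h) at the top to Gtf2e1 (6.65 FPKM in floxed, 17.6 FPKM in wild type at 48 h) at the bottom. The gap between genotypes is wider at 48 h for all 22. This follows in part from the choice of genes, since all 22 met the ratio at 48 h and only Taf4a also at 24 h.

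Of the calls, 12 were made at both times, all in the same direction and all with a larger difference at 48 h on the log2(FPKM + 1) scale. They are 70.6% of the 17 members called at 24 h and 41.4% of the 29 called at 48 h. Over all genes the shares in the same direction were 77.1% and 37.4%. Of 2479 genes called at both times, 2343 kept their direction, and 1961 of these had the larger difference at 48 h. Polr2k, Taf1, Taf12, Taf15 and Med14 were called at 24 h and not at 48 h, 17 members at 48 h and not at 24 h, and 45 at neither time. The change of the genotype difference between the times was not tested. On the log2(FPKM + 1) scale that change was -0.91 for Gtf2h3, -0.79 for Gtf2e1 and -0.76 for Taf15, and 0.76 for Med10, 0.73 for Gtf2f1 and 0.73 for Taf9b. Calls with a ratio under 1.5 numbered 16 at 24 h (12 higher, 4 lower) and 7 at 48 h (5 higher, 2 lower). Members that were not called had ratios of 0.769 to 1.59 at 24 h and 0.634 to 1.5 at 48 h, and 56 of 62 and 39 of 50 of them lay within 1.25-fold.

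**Figure D3:**
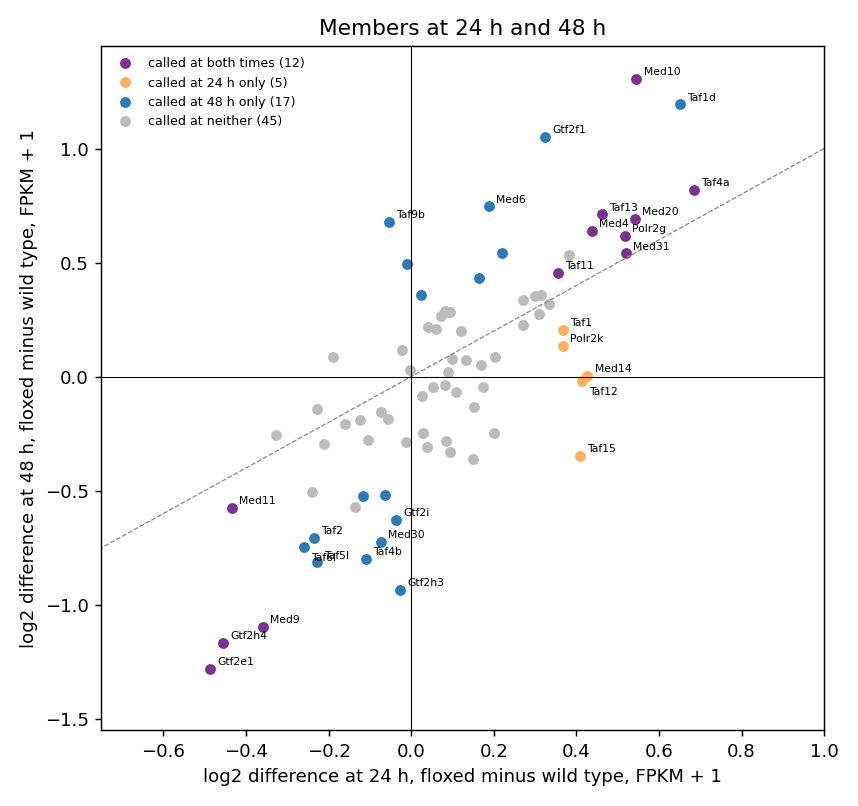
Log2 difference at 24 h (x axis) against that at 48 h (y axis), floxed minus wild type on the log2(FPKM + 1) scale, for the 79 expressed members. Points are coloured by the times at which the gene was called, and the dashed line marks equal differences. The 12 genes called at both times lie farther from 0 at 48 h than at 24 h. Over all genes, this held for 1961 of the 2343 called at both times in the same direction.

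Within a line, levels at 48 h can be set beside levels at 24 h, although whether the authors scaled them together is not stated. In floxed cells the ratio of 48 h to 24 h ran from 0.452 for Taf4b to 1.90 for Taf9b, with 49 of 79 members within 1.25-fold. In wild type cells it ran from 0.889 for Med18 to 1.20 for Gtf2h3, with all 79 within 1.25-fold. Over all expressed genes 42.8% in floxed and 90.0% in wild type cells lay within that range. On the log2(FPKM + 1) scale 3 members were at least 1.5-fold higher and 8 at least 1.5-fold lower at 48 h in floxed cells, and none in wild type cells. The shares of all expressed genes past that size were 12.0% higher and 11.4% lower in floxed cells and 0.475% higher and 1.53% lower in wild type cells.

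**Figure D4:**
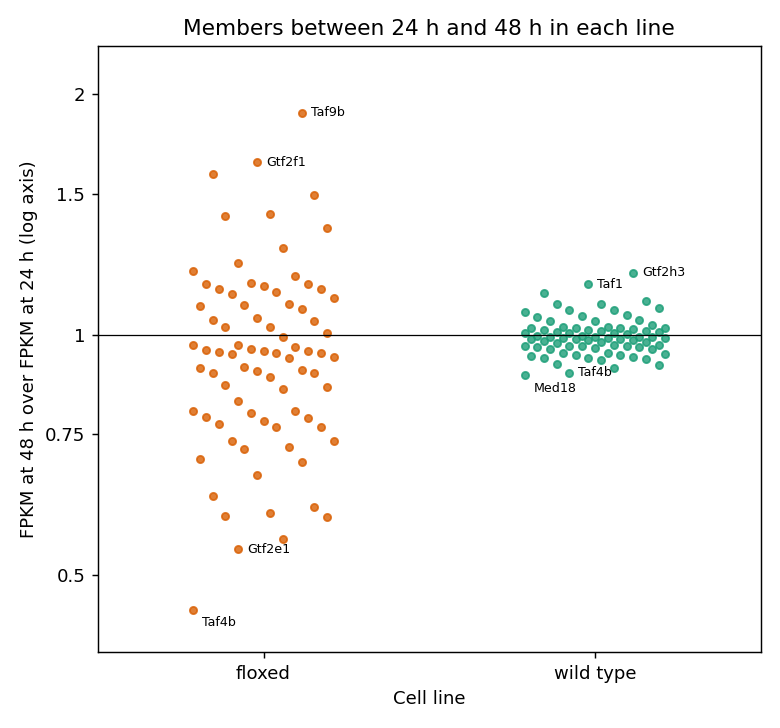
FPKM at 48 h over FPKM at 24 h, on a log axis, for the 79 expressed members in floxed (left) and wild type (right) cells. Each point is 1 gene, spread sideways for sight; floxed values run from 0.452 to 1.90 and wild type values from 0.889 to 1.20.

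The machinery also has subunits and helpers with other names. Of 25 such genes, 5 rose and 2 fell at 24 h, and 4 rose and 7 fell at 48 h. That is 28.0% and 44.0% called, beside 27.6% and 56.8% of all tested genes, or 31.0% for genes called lower at 48 h. Tbp, the TATA-binding protein at the centre of TFIID, had 17.2 FPKM in floxed and 25.2 FPKM in wild type cells at 48 h and was 1.47-fold lower (q = 0.00492 in the authors' deposited table). Both TFIIH helicases rose at 48 h while the cyclin of its kinase fell. Ercc2 had 20.7 FPKM in floxed and 12.8 FPKM in wild type cells, and Ercc3 had 37.0 FPKM in floxed and 24.7 FPKM in wild type cells, whereas Ccnh had 17.5 FPKM in floxed and 32.0 FPKM in wild type cells. Ccnc, the cyclin of the Mediator kinase, rose at both times and had 26.0 FPKM in floxed and 16.4 FPKM in wild type cells at 48 h. Its kinases Cdk8 and Cdk19 were not called. Ercc2 shares its locus entry with other genes.

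Of 8 factors that assemble or import the polymerase, 1 rose and 2 fell at 24 h, and 4 fell and none rose at 48 h, on the same background. Ruvbl2, an ATPase of the assembly chaperone, had 69.6 FPKM in floxed and 168 FPKM in wild type cells at 48 h, 2.42-fold lower with q = 0.000165 in the authors' deposited table. Rpap1, Rpap2 and Ruvbl1 were 2.04-fold, 1.73-fold and 1.66-fold lower at 48 h. Of 7 phosphatases and cofactors of the polymerase tail, Ctdspl and Rprd1a rose at 24 h, with ratios of 1.78 and 1.39. Ctdsp2 rose at 48 h, with 51.6 FPKM in floxed and 27.9 FPKM in wild type cells, and Ssu72 fell, with 51.6 FPKM in floxed and 84.3 FPKM in wild type cells. Rpap2 and Ctdsp2 share their locus entries with other genes.

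Overlap between genes limits these counts. In the annotation, exons of 34 of the 82 members overlap those of another gene, and the strandedness of the libraries is not given. Without these 34, 8 members rose and 4 fell at 24 h, and 8 rose and 11 fell at 48 h. Leaving them out removes the risers Taf4a, Taf11, Taf1d, Gtf2ird2, Med10, Med20, Med29 and Med31 and the fallers Taf6 and Taf6l at 48 h. Of all tested genes, 13.4% were higher and 14.2% lower at 24 h, and 25.7% higher and 31.0% lower at 48 h. No filter on overlap was applied to those shares.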

How the data were processed

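8 poly(A) RNA libraries, 2 for each of 4 groups, were grouped by genotype and time from the sample titles. The tools Cufflinks 2.1, Cuffdiff and Bowtie2 and the build mm10 are named in the submitters' processing notes without a role. Per the file headers, the authors deposited 1 FPKM value per gene and group, a q-value for the genotype comparison at each time, and a fold. Of the fold columns the last bears a repeated 24 h name, and neither was used here. Ratios in the text are FPKM over FPKM, computed here. FPKM is relative to all other RNA measured. The duplicates cannot be separated, so a limma fit over libraries could not be made, and a call is the authors' deposited q under 0.05. That q rests on only 2 libraries per group, and how it was computed from them is not stated.

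Members and lists were chosen with earlier results of these data known. Values were given for members called with a ratio of at least 1.5 at a time, for Polr2a, Polr2b, Gtf2b, Taf1, Med1, Med12, Med14 and Med26, for called members that changed direction between times (none did), and for members under 1 FPKM. Others are named by complex and were chosen after their values were seen. Left out were 27 rows whose names had become dates. Genes matched GENCODE M21, on the same assembly as mm10, for all 82 members. Upstream sequences are from RefSeq on GRCm38.p6. Log2 differences used a pseudocount of 1, which understates changes of low genes. 1 marker is not reported here. Depth is not given. On the assumption, not tested, that the most common ratio among genes under 0.05 FPKM marks 1 fragment in each group, the worth of 1 fragment in floxed relative to wild type cells was 0.834 at 24 h and 1.07 at 48 h. The p were recovered as q times rank over 11927 tested genes at 24 h and 12192 at 48 h. Scripts ran in Python 3.11.15 with pandas 2.3.3, numpy 2.4.6 and matplotlib 3.10.9, and were tested on simulated data.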

Additional observations from a re-analysis of the deposited data

How the results depend on the processing

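Under a call at q under 0.01, 9 members were called at 24 h, 7 higher and 2 lower, in place of 17, and 25 at 48 h. Leaving out members with exon overlap, an alternative chosen after seeing the data, gave 8 higher at 24 h, and 19 called at 48 h, 8 of them higher. A stricter threshold or fewer genes can only lower such counts. Without the members with exon overlap the balance at 48 h also turned, from 16 higher and 13 lower to 8 higher and 11 lower. Leaving out members that share a locus entry gave 15 at 24 h and 24 at 48 h. The median log2 difference at 24 h (0.08) became 0.0865 with a pseudocount of 0.1, 0.0673 with a pseudocount of 5, 0.0884 for genes of 5 FPKM or more, 0.103 with the groups rescaled to the same sum and 0.0930 with the median of expressed genes set to 0. At 48 h the median (0.02) became 0.0020 with no filter on low values, 0.0039 for genes of 5 FPKM or more, 0.0393 without members that share a locus entry and 0.0839 with the median of expressed genes set to 0. It reversed to -0.0698 with the groups rescaled to the same sum, which shifts all expressed genes by -0.09. Neither rescaling turned the direction of a called member. The counts of 17 and 29 could not alter under either, because the authors' q was not recomputed. Of the log2 differences of single named members under other pseudocounts and scalings, 155 kept the direction of their call or, where not called, their value to 2 decimals, and 85 values that were not called altered at 2 decimals. None of a called member reversed, which a pseudocount common to both groups could not bring about in any case. The change between times altered at 2 decimals in 53 values and not in 7. No paired analysis was possible because the table holds 1 combined value per group, and for the same reason leaving out a replicate was not run. Depth per library is not given, so no interval was computed.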

Other observations

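The other 2 nuclear RNA polymerases, which share 5 subunits with polymerase II, are given here for their own values. Over all tested genes, 13.4% were called higher and 14.2% lower at 24 h, and 25.7% higher and 31.0% lower at 48 h. Of 5 genes named for polymerase I, none was called at 24 h and at 48 h Polr1d rose while Polr1a and Polr1b fell. Polr1a, the largest subunit of polymerase I, had 10.7 FPKM in floxed and 21.2 FPKM in wild type cells at 48 h, and Polr1b had 13.7 FPKM in floxed and 26.0 FPKM in wild type cells. Polr1d, a subunit that polymerase I shares with polymerase III, had 303 FPKM in floxed and 222 FPKM in wild type cells.

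Of 10 genes named for polymerase III, 1 fell at 24 h and 5 fell and none rose at 48 h. Polr3e had 11.4 FPKM in floxed and 18.7 FPKM in wild type cells at 24 h and 7.77 FPKM in floxed and 16.4 FPKM in wild type cells at 48 h. Polr3g and its relative Polr3gl, which replace each other in the enzyme, had 5.99 FPKM in floxed and 12.6 FPKM in wild type cells and 4.96 FPKM in floxed and 10.1 FPKM in wild type cells at 48 h. The median log2 difference of the 10 genes at 48 h was -0.62 on the log2(FPKM + 1) scale, beside -0.06 for all expressed genes. It was 0.33 for the 7 subunits of polymerase II alone and -0.25 for the 5 shared subunits, which polymerase III also contains. The difference between the polymerases was not tested.

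Members that rose at 48 h spanned a median of 11.2 kb of genome (16 genes) and those that fell 18.5 kb (13 genes), beside 17.3 kb for the 50 that were not called. Over all expressed genes with a match in the annotation, the medians at 48 h were 17.1 kb for genes that rose, 27.1 kb for genes that fell and 20.5 kb for genes that were not called.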
